A study of Bos indicus x Bos taurus with 78 samples.

Results

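Of the 1030 bovine miRNA entries in the count table, 5 were chosen by name because they may hold fragments of tRNA, rRNA or snoRNA: bta-miR-1260b, bta-miR-2478, bta-miR-2904, bta-miR-1248 and bta-miR-1839. They are written below without the species prefix. Small RNA had been sequenced from Longissimus lumborum, the loin muscle, in frozen biopsies of 78 Bos indicus x Bos taurus steers, and the study asked which miRNAs vary with dark-cutting, a defect of dark, dry meat in animals whose muscle ran short of glycogen before slaughter. The normal group held 53 steers and the dark-cutting group 25, whose labels add a degree of 1/4 (8 steers), 1/3 (9 steers), 1/2 (3 steers), 2/3 (4 steers) or 3/4 (1 steer). All animals are labelled male, each library is from a separate animal, and no treatment is labelled. The entry miR-1260b was known from earlier results of these same data, where it had the smallest p for phenotype and was called at degree 2/3 and in the trend with degree. Its differences between groups are therefore given as descriptions without a p, and so are those of the other 4 entries. Intervals printed for them do not allow for this choice. The choice did not use the variation of the entries together from steer to steer, which was tested. Over all 78 steers that variation still includes the group differences by which miR-1260b was chosen. Values within groups and with group means taken off are therefore given as well.

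A miRNA is cut from a hairpin transcript by the nucleases Drosha and Dicer and then guides Argonaute proteins to messenger RNAs. A small RNA library also takes up short pieces of tRNAs, which carry amino acids, of rRNAs, which form the ribosome, and of snoRNAs, which guide chemical changes of rRNA. Several entries in miRNA catalogues overlap such housekeeping RNAs, so reads counted under a miRNA name can come from them. Human miR-1260b has been described as matching the end of a leucine tRNA, miR-1248 lies in a snoRNA within an intron of EIF4A2, a translation factor gene, and miR-1839 in a small Cajal body RNA. The count table names each entry but shows neither its sequence nor its position in the genome. Mature sequences were not analysed here, so the origin of the reads was not tested.

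All 6 skeletal muscle miRNAs on a marker list, miR-1 among them, were found in every steer. Libraries held 1427817 to 4535675 counts (median 3209320), of which miR-1 made up 84.1% ± 2.76 (SD, n = 78). The 5 entries together held between 0.00579% and 0.0311% of a library's counts, with a median of 0.0113%. A few libraries stood apart. Normal replicate 20 had the lowest share of miR-1, at 72.3%. Normal replicate 19 had the highest summed level of the red cell miRNAs miR-451, miR-144 and miR-486, at a CPM (counts scaled to a common library size) of 3262 against a median of 677. Normal replicate 17 held by far the most miR-2904. In a biopsy, fewer cells of a type and less RNA per cell cannot be told apart, and every level stands relative to the rest of its library.

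Levels of the 5 entries were spread over the middle and lower parts of the range of tested miRNAs. On the scale of CPM after TMM normalisation, the mean over 78 steers was 56.8 for miR-2904, 28.6 for miR-1839, 17.8 for miR-1248, 10.2 for miR-2478 and 3.84 for miR-1260b. Among the 272 entries with enough counts to be tested, all 5 included, these levels ranked 105, 126, 139, 163 and 214. No length correction was made, although a read of these entries may be a piece of a longer RNA. The first place was nearly fixed: miR-2904 was above miR-1839 in 72 of 78 steers and above miR-2478 and miR-1260b in all 78. At the lower end, miR-2478 was above miR-1260b in 76 steers. The middle of the order was less fixed: miR-1839 was above miR-1248 in 65 steers, and miR-1248 was above miR-2478 in 59, and in both cases the means on the log2 scale lay within 1 SD of miR-1248 of each other.

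Spread between steers differed widely among the 5. The SD of log2 CPM over all steers was 0.90 for miR-1248, 0.82 for miR-1260b, 0.59 for miR-2478, 0.53 for miR-2904 and 0.29 for miR-1839. By this measure miR-1248 ranked 7 and miR-1260b 15 of 272 from the most variable, while miR-1839 ranked 213. Low entries carry counting error, which was worked out from the mean count. Counting alone gave 19.8% of the variance between steers for miR-1260b, whose mean count was 12.8, and 15.3% for miR-2478, at a mean count of 33.8. The share was 2.78% for miR-2904, 6.10% for miR-1248 and 26% for miR-1839, the entry with the smallest total spread. The biological coefficient of variation estimated by edgeR, which leaves counting error out, was 55.1% for miR-1248, 46.7% for miR-1260b, 38.2% for miR-2478, 36.3% for miR-2904 and 19.5% for miR-1839, against a median of 28.3% over the 272 entries. Thus 4 of the 5 varied more between steers than the median entry, and miR-1839 less.

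**Figure D1:**
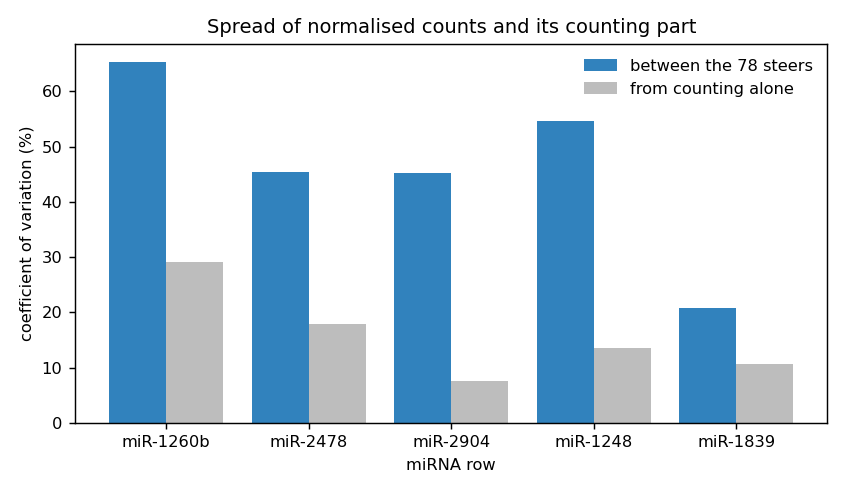
Coefficient of variation (%) of normalised counts between the 78 steers for each of the 5 entries (blue bars), beside the part expected from counting alone (grey bars). For miR-1260b these were 65.3% and 29.05%, and for miR-2904 45.3% and 7.55%.

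The low abundance of miR-1260b sets what its values can show. Normal steers had between 1 and 41 counts with a median of 9, and 30 of the 53 had fewer than 10 counts. At degree 1/4 the counts ran from 7 to 17 with a median of 9.5, and at degree 1/3 from 0 to 37 with a median of 16. The 3 steers of degree 1/2 had 15, 16 and 19 counts, and the 4 steers of degree 2/3 had 48, 21, 20 and 39. The single steer of degree 3/4 had 18. The 1 steer with no read was replicate 9 of degree 1/3, and a count of 0 allows up to 3 counts, or 0.988 CPM in its library of 3036052 counts, counting error only.

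On the log2 CPM scale miR-1260b was at 1.77 ± 0.72 in normal steers (SD, n = 53). The level was 1.92 ± 0.47 at degree 1/4 (SD, n = 8), 2.21 ± 1.23 at 1/3 (SD, n = 9), 2.21 ± 0.36 at 1/2 (SD, n = 3), 3.29 ± 0.45 at 2/3 (SD, n = 4) and 2.19 in the steer of degree 3/4. Without the steer that had no read, degree 1/3 was at 2.57 ± 0.60 (SD, n = 8). The groups overlapped at every degree. Above the normal median were 20 of the 25 dark-cutting steers, and 4 were above the highest normal steer, 2 of degree 1/3 and 2 of degree 2/3. Steers of degree 2/3 took places 1, 2, 7 and 12 of 78, and 5 of 53 normal steers were at or above the lowest of them. The steer with the highest degree, 3/4, took place 30, so the level did not rise with each step of degree.

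Counts of miR-2478 ran from 6 to 130 in normal steers, with a median of 27, from 9 to 87 at degree 1/4, with a median of 25.5, and from 30 to 87 at degree 1/3, with a median of 43. They were 47, 42 and 53 at degree 1/2, 71, 40, 25 and 38 at degree 2/3, and 52 at degree 3/4. Mean log2 CPM was 3.23 ± 0.55 in normal steers (SD, n = 53), 3.10 ± 0.86 at degree 1/4 (SD, n = 8), 3.72 ± 0.47 at 1/3 (SD, n = 9), 3.59 ± 0.30 at 1/2 (SD, n = 3) and 3.71 ± 0.46 at 2/3 (SD, n = 4). All groups overlapped the normal range, and 16 of 25 dark-cutting steers were higher than the median normal steer, 8 of the 9 of degree 1/3 but 2 of the 8 of degree 1/4. The highest level was that of replicate 5 of degree 1/4, and the highest count, 130, was in normal replicate 20, the library with the lowest share of miR-1.

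The most abundant of the 5, miR-2904, had between 35 and 761 counts in normal steers, with a median of 154. Counts ran from 84 to 300 at degree 1/4, with a median of 181, and from 121 to 329 at degree 1/3, with a median of 163. They were 307, 220 and 181 at degree 1/2, 234, 241, 142 and 274 at degree 2/3, and 467 at degree 3/4. The 761 counts of normal replicate 17 made 226 CPM, or 7.82 on the log2 scale, far above the next steer at 6.69, which was the steer of degree 3/4. That steer lay 1.76 normal SDs above the normal mean. Group means of log2 CPM were close: 5.69 ± 0.57 in normal steers (SD, n = 53), 5.74 ± 0.40 at degree 1/4 (SD, n = 8), 5.81 ± 0.37 at 1/3 (SD, n = 9), 5.82 ± 0.20 at 1/2 (SD, n = 3) and 6.07 ± 0.51 at 2/3 (SD, n = 4).

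Dark-cutting steers lay within the normal range of miR-1248. Its counts ran from 6 to 208 in normal steers, with a median of 63, from 12 to 113 at degree 1/4, with a median of 45.5, and from 15 to 138 at degree 1/3, with a median of 46. They were 61, 43 and 82 at degree 1/2, 26, 20, 90 and 75 at degree 2/3, and 40 at degree 3/4. Mean log2 CPM was 4.06 ± 0.95 in normal steers (SD, n = 53) and 3.77 ± 0.77 in all dark-cutting steers (SD, n = 25), of which 5 lay above the normal median. Degree 2/3 was itself split, with 2 steers at 90 and 75 counts and 2 at 26 and 20.

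Counts of miR-1839 stayed in a narrow band, from 37 to 179 in normal steers, with a median of 87, from 46 to 108 at degree 1/4 and from 73 to 120 at degree 1/3. They were 150, 123 and 92 at degree 1/2, 126, 80, 91 and 71 at degree 2/3, and 138 at degree 3/4. Mean log2 CPM was 4.86 ± 0.30 in normal steers (SD, n = 53) and 4.80 ± 0.28 in dark-cutting steers (SD, n = 25), and 12 of the 25 lay above the normal median. Its lowest level was in normal replicate 19, the library rich in red cell miRNAs.

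**Figure D2:**
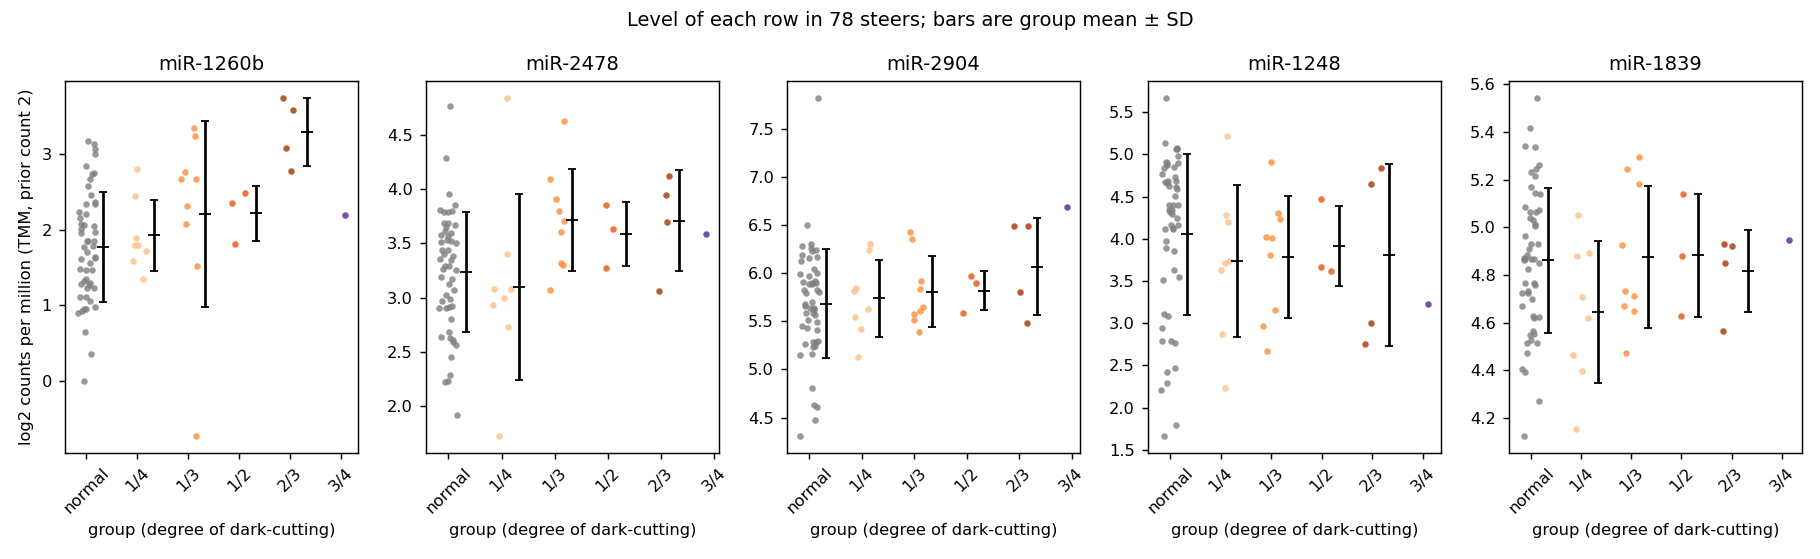
Level of each entry (log2 CPM after TMM normalisation, prior count 2; vertical axes differ) in each steer by group, with the mean and SD of each group of at least 3 steers. The 4 steers of degree 2/3 have high miR-1260b, and normal replicate 17 is the lone high point of miR-2904 at 7.82.

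Fold changes against the 53 normal steers were estimated with edgeR over all tested entries. These comparisons share the normal steers, so their values are given side by side only. In dark-cutting steers as a whole the log2 fold change was 0.64 ± 0.20 (SE) for miR-1260b, with a 95% interval of 0.25 to 1.03, and 0.30 ± 0.14 for miR-2478, with an interval of 0.02 to 0.58. It was 0.12 ± 0.13 for miR-2904, or 0.22 without normal replicates 17 and 20, and -0.37 ± 0.20 for miR-1248, with an interval of -0.77 to 0.02, and -0.07 ± 0.08 for miR-1839. The median of the 5 was 0.12 with 3 of 5 above 0, and the median over all 252 entries tested was -0.01 with 46.03% above 0. No member was called at an adjusted p under 0.05, where 0% of the 252 entries were called. By edgeR 23 entries had an unadjusted p under 0.05, and DESeq2 and limma-voom also called 0. With total count scaling the median of all 252 entries was 0.10, with 72.6% above 0, and the fold changes of the 5 members had a median of 0.24, with 4 above 0.

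The authors' deposited table of the same contrast, 542 entries of a DESeq2 fit, gives log2 fold changes of 0.66 for miR-1260b, 0.31 for miR-2478, 0.12 for miR-2904, -0.36 for miR-1248 and -0.06 for miR-1839. Each lies within 1 SE of the value above.

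By degree, the difference of miR-1260b was uneven. Its log2 fold change was 0.03 ± 0.31 (SE) at degree 1/4, 0.64 ± 0.27 at 1/3, 0.32 ± 0.45 at 1/2 and 1.54 ± 0.34 at 2/3. The last was 2.90-fold, with a 95% interval of 0.85 to 2.22 on the log2 scale. That interval does not allow for the choice of miR-1260b by its difference at this degree. Without replicate 9 of degree 1/3 the value at that degree was 0.80. The member miR-2478 was at 0.01 ± 0.23, 0.47 ± 0.21, 0.28 ± 0.34 and 0.45 ± 0.30 at these degrees. For miR-2904 the values were -0.02 ± 0.20, 0.05 ± 0.19, 0.02 ± 0.31 and 0.33 ± 0.27. Leaving out 1 steer moved the last between 0.18 and 0.55 and the value at degree 1/2 between -0.08 and 0.13. The 4 values of miR-1248 were all below 0, at -0.36 ± 0.32, -0.38 ± 0.30, -0.36 ± 0.49 and -0.23 ± 0.43, each with an interval that includes 0, and the last was 0.12 without replicate 1 of degree 2/3. Those of miR-1839 lay between -0.22 ± 0.12 at degree 1/4 and 0.01 ± 0.11 at degree 1/3.

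Of the 5 members, 1 was called at degree 2/3, miR-1260b, where 0.368% of the 272 entries were called. None was called at degrees 1/4, 1/3 and 1/2, where 0% of the entries were called, and 3, 25 and 13 entries had an unadjusted p under 0.05 by edgeR. The call of miR-1260b is the one by which it was chosen. It was lost when replicate 1 or replicate 4 of degree 2/3 was left out. Over the 11 alternatives tried, the log2 value at degree 2/3 lay between 1.37 and 1.76.

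**Figure D3:**
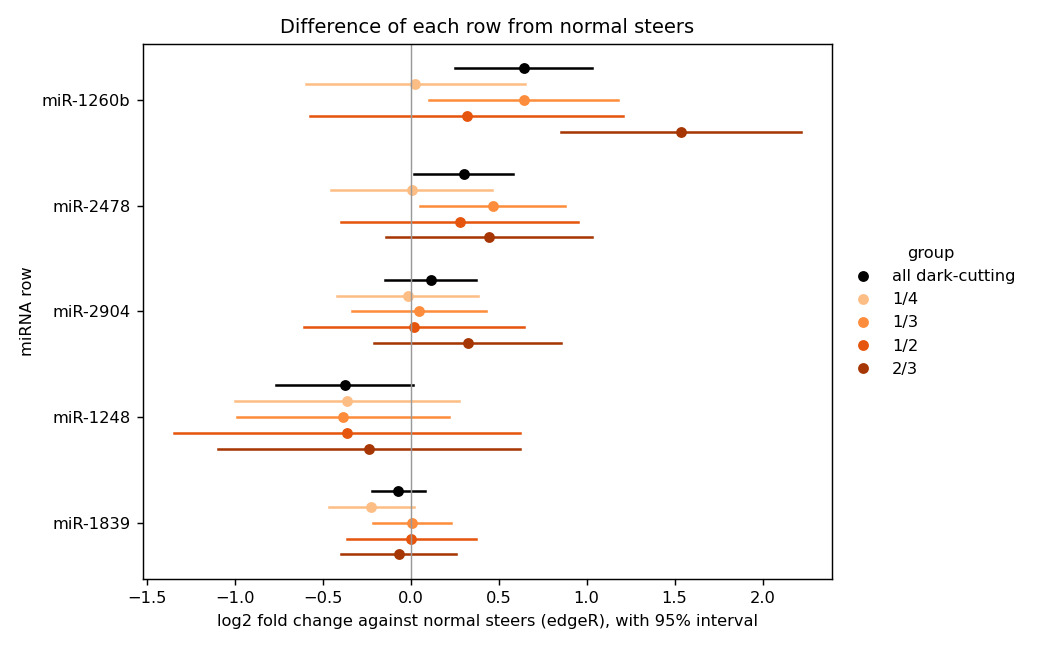
Log2 fold change of each entry against normal steers, with its 95% interval (horizontal bars), for all dark-cutting steers and for each degree with at least 3 steers. The value of miR-1260b at degree 2/3, 1.54, is the farthest from 0, and the 5 values of miR-1248 plotted are below 0.

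As a slope on degree over all 78 steers, with normal steers at 0, the log2 change per unit of degree was 1.67 ± 0.40 (SE) for miR-1260b, 0.71 ± 0.32 for miR-2478, 0.44 ± 0.28 for miR-2904, -0.77 ± 0.44 for miR-1248 and -0.09 ± 0.17 for miR-1839. Here too 1 of the 5 was called, miR-1260b, where 0.368% of the 272 entries were called. When the 4 steers of degree 2/3 were left out, the slope of miR-1260b was 0.96, its log2 fold change between phenotypes was 0.36, and no entry was called. Among the 25 dark-cutting animals alone the slope was 2.39 ± 0.91 for miR-1260b, and 0.27 without degree 2/3. It was 0.96 ± 0.44 for miR-2904, with a 95% interval of 0.08 to 1.85, 0.51 ± 0.75 for miR-2478, -0.08 ± 0.90 for miR-1248 and 0.25 ± 0.40 for miR-1839. None was called, where 0% of the 251 entries were called.

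Ratios between entries of a library were taken as differences of log2 CPM, so they keep a small dependence on the prior count and the scaling. The log2 ratio of miR-1260b to miR-2478 was higher by 1.05 at degree 2/3 than in normal steers, and differed by 0.29 at degree 1/4, -0.04 at 1/3, 0.09 at 1/2 and 0.07 in the steer of degree 3/4. That of miR-1260b to miR-2904 was higher by 1.14 at degree 2/3, and differed by 0.10, 0.32, 0.31 and -0.58 at the other degrees. The values at degree 1/3 rest on replicate 9, which had no read of miR-1260b: without it they were 0.31 against miR-2478 and 0.63 against miR-2904. These differences were not tested.

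Whether the 5 vary together was tested for all 10 pairs over the 78 steers, with two-sided permutation tests of 100000 resamples and Benjamini-Hochberg adjustment over the 10 pairs. Of the 10 pairs 2 passed, both with miR-1260b. Its level rose with that of miR-2478 (Spearman rho = 0.38, permutation p = 0.00063, adjusted p = 0.0063; Pearson r = 0.36, adjusted p = 0.0121). It also rose with that of miR-2904 (rho = 0.34, permutation p = 0.00274, adjusted p = 0.0137; r = 0.34, adjusted p = 0.0121). The third pair among these entries, miR-2478 and miR-2904, had a rho of 0.24 (permutation adjusted p = 0.109). Without the 2 steers farthest from the median of the first entry, r was 0.41 for miR-1260b and miR-2478, 0.32 for miR-1260b and miR-2904, and the rho of miR-2478 and miR-2904 was 0.29 (permutation adjusted p = 0.0371).

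The other 7 pairs ranged from a rho of -0.18 for miR-1248 and miR-1839 (permutation adjusted p = 0.283) to 0.16 for miR-2478 and miR-1839 (adjusted p = 0.297). The median rho over the 10 pairs was -0.0049, beside 0.0017 over all 36856 pairs of tested entries, of which the middle 80 in 100 lay between -0.24 and 0.26. The 3 pairs among miR-1260b, miR-2478 and miR-2904 had a higher rho than 96.0%, 94.4% and 88.7% of all pairs. The 2 entries that lie in snoRNA-like genes in other mammals, miR-1248 and miR-1839, were in none of the pairs that passed, and the rho between them was the lowest of the 10.

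The relation of miR-1260b to miR-2478 and miR-2904 did not pass within groups. In the 53 normal steers rho was 0.22 with miR-2478 (permutation adjusted p = 0.282) and 0.34 with miR-2904 (adjusted p = 0.0645). In the 25 dark-cutting steers it was 0.53 (permutation adjusted p = 0.0624) and 0.22 (adjusted p = 0.466). With the mean of each phenotype and degree group taken off, the values were 0.26 (permutation adjusted p = 0.127) and 0.30 (adjusted p = 0.0909). None of the 10 pairs passed in any of these, and the 6 values given were above 0. In dark-cutting steers miR-1248 and miR-1839 had a rho of -0.49 (permutation adjusted p = 0.0638).

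The labels give no batch, and the animal numbers fall into ranges below 600 (26 steers) and from 600 up (52 steers). In the upper range all 3 pairs passed, with a rho of 0.45, 0.40 and 0.37 for miR-1260b with miR-2478, miR-1260b with miR-2904 and miR-2478 with miR-2904 (permutation adjusted p = 0.0099, 0.018 and 0.0257). In the lower range the same pairs had a rho of 0.13, 0.37 and -0.15, and none of the 3 passed. The pair miR-2478 and miR-1839 had a rho of 0.62 in the lower range (permutation adjusted p = 0.0093) and -0.05 in the upper (adjusted p = 0.741). The difference between the ranges was not tested. Both ranges hold normal and dark-cutting steers, so the values of miR-1260b include the group differences by which it was chosen. The rho over all pairs of tested entries was not worked out within the ranges.

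**Figure D4:**
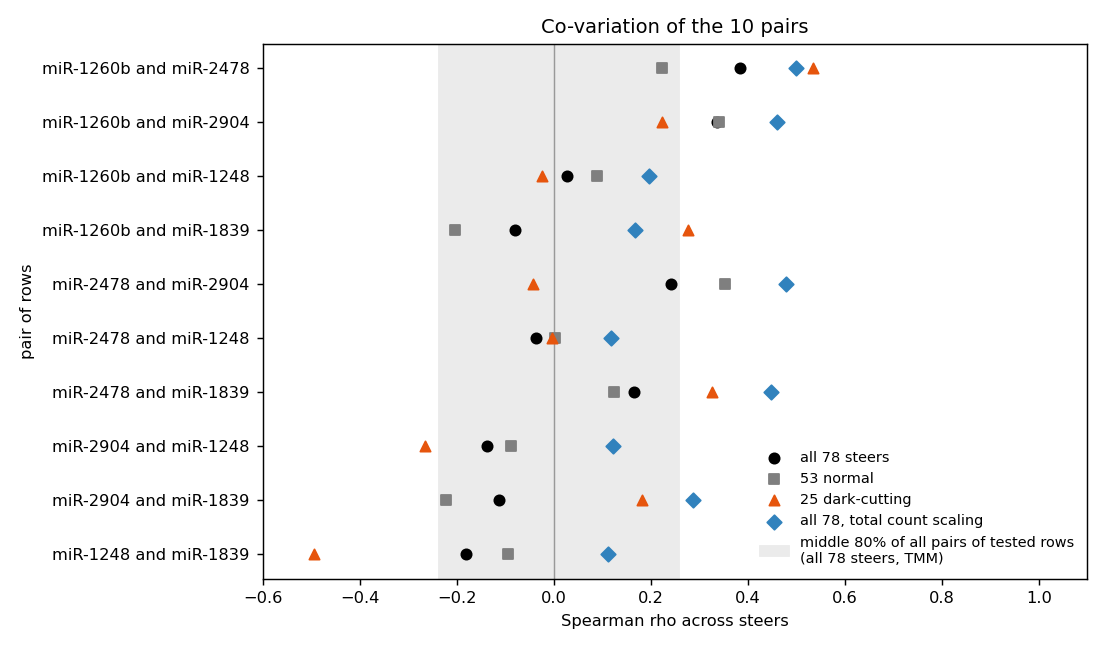
Spearman rho of log2 CPM for the 10 pairs over all 78 steers, within the 53 normal and the 25 dark-cutting steers, and over all steers with total count scaling. The grey band holds the middle 80 in 100 of all 36856 pairs of tested entries over all 78 steers after TMM normalisation (-0.24 to 0.26). On that scale miR-1260b with miR-2478, at 0.38, lies above it. The other sets of points have bands of their own, not drawn. Their upper ends are 0.28 in normal steers, 0.35 in dark-cutting steers and 0.51 with total count scaling.

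These values changed with the scaling, and the cause was not tested. In each library miR-1 takes most of the counts. With plain CPM of the total count, the rho of the 3 pairs was 0.50, 0.46 and 0.48, and 5 of the 10 pairs passed, but the median over all pairs of entries also moved, to 0.24. The other 2 that passed were miR-1839 with miR-2478, at 0.45 (permutation adjusted p = 0.0001), and with miR-2904, at 0.29 (adjusted p = 0.0224). With CPM of all counts other than miR-1, 4 pairs passed, the 3 pairs and miR-2478 with miR-1839, at 0.32 (permutation adjusted p = 0.00905). After the ranks were freed of the share of miR-1, the rho was 0.38 for miR-1260b with miR-2478 (permutation adjusted p = 0.0067) and 0.30 with miR-2904 (adjusted p = 0.0347). Without normal replicates 17 and 20, the libraries with the most miR-2904 and the lowest share of miR-1, it was 0.35 and 0.31 (permutation adjusted p = 0.0168 and 0.0311).

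Depth and composition were set against each member in 15 relations, of which 1 passed. The level of miR-1839 rose with the share of miR-1 (rho = 0.35, permutation adjusted p = 0.0217), while Pearson r was 0.28 (permutation adjusted p = 0.107), and 0.39 without the 2 farthest steers. The rho of miR-1260b was -0.07 with the log10 total count and -0.15 with the share of miR-1 (permutation adjusted p = 0.64 and 0.302), and that of miR-2478 with the total count was -0.27 (adjusted p = 0.13).

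The steers with the highest levels overlapped in part. The overlap that unrelated entries would give was not worked out, so these counts are descriptions only. Of the 20 steers with the most miR-1260b and the 20 with the most miR-2478, 11 were in both. The overlap was 8 between miR-1260b and miR-2904 and 8 between miR-2478 and miR-2904. For the other 7 pairs it was between 2 and 6, with 6 for miR-1248 and miR-1839, the pair with the lowest rho. In all 3 lists were 5 steers: replicate 5 of degree 1/3, replicates 2 and 4 of degree 2/3, and normal replicates 20 and 37. The steer with no miR-1260b read had 34 counts of miR-2478, at place 25 of 78, and 121 of miR-2904, at place 64.

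The entries most like each member were named by the highest Spearman rho over the 78 steers. For miR-1260b they were miR-2478 at 0.38, miR-206, a miRNA specific to skeletal muscle, at 0.37, and miR-2904 at 0.34, so that 2 of the 3 nearest of 271 entries were members. This order includes the group differences by which miR-1260b was chosen. In normal steers the 3 values were 0.22, 0.22 and 0.34, and in dark-cutting steers 0.53, 0.54 and 0.22. Places among all entries within groups were not worked out. For miR-2478 they were miR-151-5p at 0.51, miR-132 at 0.49 and miR-484 at 0.45, and miR-1260b came at place 9. For miR-2904 they were miR-2887 at 0.49, miR-185 at 0.43 and let-7d at 0.42, with miR-1260b again at place 9. The nearest entries of miR-1248 were miR-2404 and miR-1434-5p, both at 0.44, and miR-2285o at 0.40, and no member came before place 98. For miR-1839 they were miR-660 at 0.57, miR-21-5p, abundant in fibroblasts, at 0.49, and miR-320a at 0.43. At the other end, the lowest rho was with miR-128 for miR-1260b (-0.30), miR-2285bf for miR-2478 (-0.53), miR-199a-5p for miR-2904 (-0.48), let-7f for miR-1248 (-0.41) and miR-374a for miR-1839 (-0.52). These are descriptions over 78 libraries, which share their scaling.

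A list of 15 other entries that overlap tRNA, snoRNA, rRNA or snRNA in miRNA catalogues was looked up as well. Of these, 6 were present in the count table, 5 had a count, and 3 had enough counts to be tested: miR-664b, which lies in a snoRNA in human, at a mean of 14.01 CPM, miR-2887 at 6.08 CPM and miR-1246, described as a piece of a spliceosomal RNA, at 2.14 CPM. None of those tested was called in any comparison, where the percentages called are those given above. The log2 fold change of miR-2887 was 0.17 ± 0.15 (SE) between phenotypes and 0.35 ± 0.31 at degree 2/3, and that of miR-1246 at degree 2/3 was -1.59 ± 0.94. The value of miR-1246 rests on few reads: the 4 steers of degree 2/3 had 9 counts in all. Over all groups 64 of 78 steers had fewer than 10 counts of it.

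Among the 15 relations of the members with these 3 entries, miR-2887 alone passed by rho, with miR-2904 and with miR-1260b. Its level rose with that of miR-2904 (rho = 0.49, permutation adjusted p = 0.0003; r = 0.61, adjusted p = 0.00015, from the smallest p that the resamples can give; r = 0.53 without the 2 farthest steers). It also rose with miR-1260b (rho = 0.33, permutation adjusted p = 0.0306; r = 0.35, adjusted p = 0.0137). With miR-2478 the rho was 0.26 (permutation adjusted p = 0.117) and r was 0.31 (adjusted p = 0.0327). Places of these relations among all 36856 pairs of tested entries were not worked out. The rho of miR-1260b with miR-2904, 0.34, was higher than that of 94.4% of those pairs. The 0.33 of miR-1260b with miR-2887 lies just below it. That value also includes the group differences by which miR-1260b was chosen, and it was not worked out within groups. Within groups the rho of miR-2887 and miR-2904 was 0.60 in normal and 0.14 in dark-cutting steers. The steers with the highest levels of miR-2904, normal replicate 17 and the steer of degree 3/4, had 78 and 48 counts of miR-2887, beside a median of 18 over all steers. Neither miR-664b nor miR-1246 had a relation with any member that passed, and with miR-1260b their rho was 0.01 and -0.20.

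**Figure D5:**
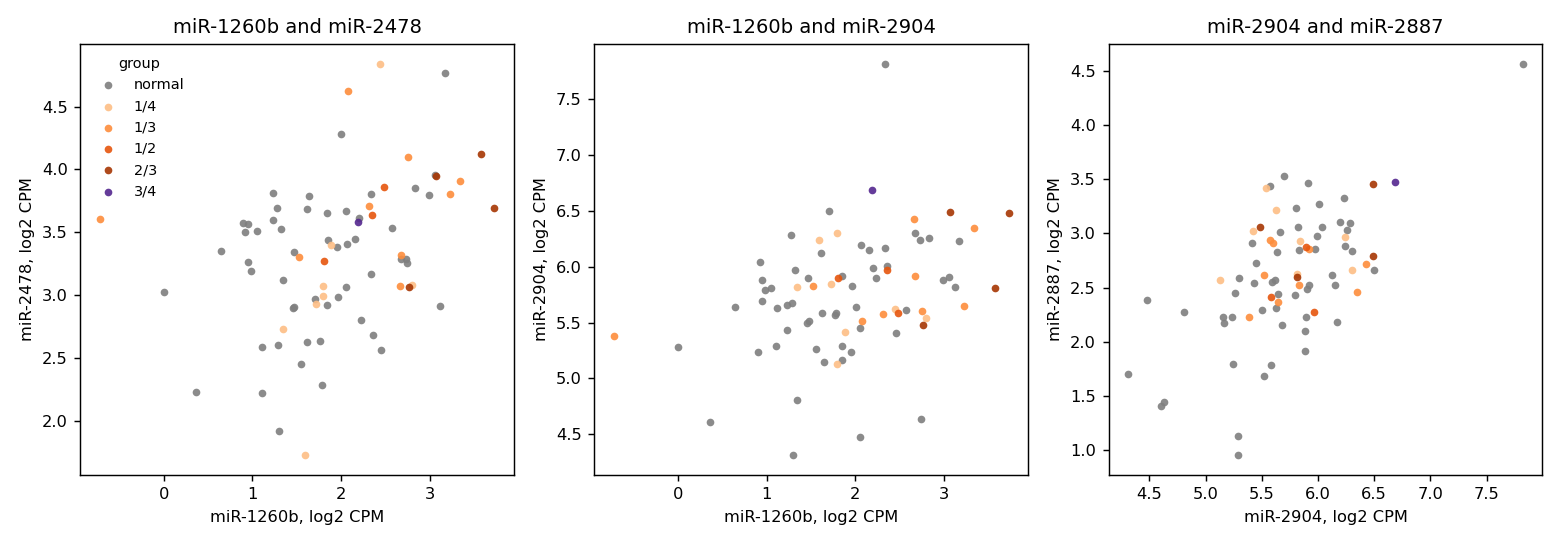
Level (log2 CPM) of miR-1260b against miR-2478 and against miR-2904, and of miR-2904 against miR-2887, with 1 point per steer coloured by group. Spearman rho over 78 steers was 0.38, 0.34 and 0.49, and the upper right point of the last panel is normal replicate 17.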

How the data were processed

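The labels' protocols name the NEXTflex kit for small RNA. FastQC, Trimmomatic 0.32 and, for statistics, DESeq2 1.34.0 appear in the submitters' processing notes. Not given in the sources used here are the build, the miRNA reference, and the tools that aligned and counted reads. If reads of housekeeping RNAs were not removed before counting, they would be counted under the miRNA names they match. The deposited matrix holds raw whole-number counts per miRNA and steer, per the file headers and values. The authors' deposited table gives per miRNA a mean normalised signal, a log2 fold change with its standard error, a Wald score, a p-value and an adjusted p-value. Its Wald scores were matched by DESeq2 on phenotype within 7.55e-08, which settled its contrast.

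Counts were fitted with edgeR 4.0.16 (R 4.3.3; quasi-likelihood F test, robust, TMM, Benjamini-Hochberg over all tested entries, threshold 0.05). The filter for phenotype was filterByExpr with a minimum count of 10 (252 entries). For degrees an entry had to reach 10 counts, scaled for depth, in 8 or more libraries and 15 in all (272 entries). Log2 CPM used a prior count of 2. Permutation tests of the correlations were written with numpy 2.4.6, with ranks from scipy 1.17.1. Alternatives were DESeq2 1.42.0, limma-voom (limma 3.58.1), other scalings, no filter, the range of animal numbers as a term and left-out libraries. Scripts were tested on simulated data. Chi-square divided by its degrees of freedom was at least 9.43 for the 3003 pairs of libraries, so none was a near copy. No entry had counts identical to a member's.

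The members and lists were chosen with earlier results of these data known. Entries are named by a rule: the 5 members, the 3 highest and 1 lowest by rho with each, the listed entries and markers.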

Additional observations from a re-analysis of the deposited data

Results flagged for a closer look

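In the 9 steers of degree 1/3, replicate 9 lay far below the others for miR-1260b: it had 0 counts and a log2 CPM of -0.72, and the nearest of the other 8 was at 1.52. The gap was 0.552 of the whole range of the group. Of 15 sets of values tested in this way (5 entries in the degrees with 4 to 9 steers), this was the 1 set with such a sample. Chance gives about 1 in 20 sets, a rate over sets that does not tell why this steer had no read. The other 8 steers of the degree had 11 to 37 counts. The cause was not tested. The log2 value of a count of 0, and so the gap, depends on the prior count. The other 4 entries were within their range in this steer, with 34 counts of miR-2478, 121 of miR-2904, 46 of miR-1248 and 73 of miR-1839.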

How the results depend on the processing

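Of 35 log2 values of the members, 26 kept their sign over the 320 alternative values, and 9 moved by more than 1 SE under some alternative. Those of miR-1260b moved without degree 2/3 (0.36 between phenotypes, 0.96 for the slope, 0.27 within dark-cutting steers) and, at degree 1/3, with limma-voom (0.36). Leaving out replicate 9 of degree 1/3, chosen after seeing the data like the fits without normal replicates 17 and 20 and the ranks freed of the share of miR-1, changed no count of calls. The phenotype comparison called 2 entries, miR-2284f and miR-2285cz, with no filter, in place of 0. At degree 2/3 leaving out 1 steer gave 0 to 1 calls. The slope over all steers called 3 entries with DESeq2, with DESeq2 size factors, with total count scaling and with no filter, and 0 with limma-voom and without degree 2/3. Total count scaling put the median of all entries at 0.10 between phenotypes, 0.13 at degree 1/3, 0.17 at 1/2 and 0.19 for the slope over all steers, and its values of miR-1839 moved to 0.04, 0.13, 0.19 and 0.17 in the same order. Without degree 2/3 the slope of miR-1248 within dark-cutting steers was -1.04. Pairs past the threshold numbered 5 with total count scaling, 4 without miR-1 in the total, 1 in animals numbered below 600, and 0 in normal steers, in dark-cutting steers and with group means taken off. With total count scaling the median rho over all pairs of entries was itself 0.24, and without miR-1 in the total it was 0.056. Total count scaling turned the rho of miR-1839 with miR-1260b to 0.17, with miR-2904 to 0.29 and with miR-1248 to 0.11, and that of miR-1248 with miR-2478 to 0.12 and with miR-2904 to 0.12. Without miR-1 in the total, miR-1260b with miR-1839 had 0.0075 and miR-2478 with miR-1248 had 0.038, and in normal steers the latter had 0.0023. In dark-cutting steers the sign turned for miR-1260b with miR-1248 (-0.025) and with miR-1839 (0.28), and for miR-2904 with miR-2478 (-0.043) and with miR-1839 (0.18). Below 600 it turned for miR-1260b with miR-1248 (-0.23) and with miR-1839 (0.10), and for miR-2478 with miR-2904 (-0.15). From 600 up it turned for miR-2478 with miR-1248 (0.049) and with miR-1839 (-0.046), and without normal replicates 17 and 20 for miR-1260b with miR-1248 (-0.0050). The cause was not tested. No paired analysis was possible because replicate numbers only count the steers within each group. The slope within dark-cutting steers has no value without normal replicate 19, since it holds no normal steer. The counts of miR-1260b, under 10 in 35 of 78 steers, limit what its level can show in 1 steer.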
